A study of Mus musculus with 5 samples.

Results

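The small RNA silencing machinery was described here through 10 genes, chosen by name from the 55573 genes of the count table: Drosha and Dgcr8, Dicer1, the Argonaute genes Ago1, Ago2, Ago3 and Ago4, and the GW182 genes Tnrc6a, Tnrc6b and Tnrc6c. The choice followed known function and no measured value entered its rule, but it was made with earlier results of these data known. All 10 had enough reads to be tested. The study searched for transcripts that depend on UPF1, the RNA helicase of nonsense-mediated mRNA decay (NMD), in the mouse neuroblastoma line Neuro-2A (N2A). Cells in 6-well plates received 60 pmol of siRNA with the TransIT-X2 reagent. This was Silencer Negative Control #1 in the control group (siCtl, n = 2, replicates 1 and 3) and a Upf1 siRNA in the knockdown group (siUpf1, n = 3, replicates 1, 2 and 3). Polyadenylated RNA was sequenced with a strand-specific kit. No untransfected library was analysed, so each value compares cells that all carried an siRNA. The labels do not say whether the libraries came from separate cultures, and p-values therefore measure only the spread between these libraries, which may be technical. Neither the small RNAs themselves nor any protein was measured.

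A microRNA is made in steps. In the nucleus the Microprocessor, which joins the endonuclease Drosha to the RNA-binding protein Dgcr8, cuts a hairpin out of a primary transcript, and in the cytoplasm Dicer trims it to a short duplex. An Argonaute protein keeps one strand as its guide, and a GW182 protein bound to that Argonaute recruits the enzymes that remove the poly(A) tail and cap of the target. A synthetic siRNA enters the pathway at the Argonaute step, and Ago2 is the mammalian Argonaute known for slicing a fully paired target.

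Because both groups were given an siRNA, its letters are shown first. Capitals mark the seed, bases 2 to 8, with which a loaded guide first pairs. The strand given in the labels has the sense of Upf1 mRNA, and its reverse complement is the strand that pairs with Upf1. Both are 19 nt long and are written 5′ to 3′.
Strand in the labels: uCAAGGUUccugauaauua
Reverse complement, the guide against Upf1: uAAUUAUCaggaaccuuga
An mRNA that can pair with the seed of the guide holds GATAATT, and one that can pair with the seed of the other strand holds AACCTTG. The sequence of the control siRNA was not given in the sources used here, so its seed was not searched.

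The genes that carry the findings were then searched for these letters on the mRNA strand only (GENCODE M21 transcripts, build GRCm38, 1 representative transcript per gene). In Dicer1 the 3′ UTR of 3851 nt held neither 7-mer, whereas its coding sequence held GATAATT at 2 places and AACCTTG at 2 places, on the minus strand of chromosome 12. They are shown in their 30-nt surroundings, with the 7-mer in capitals.
Dicer1, GATAATT, chr12:104722110-104722139: acaggaatcagGATAATTacgtgtcctgga
Dicer1, GATAATT, chr12:104703079-104703108: tggctgagagtGATAATTactgtaagcaca
Dicer1, AACCTTG, chr12:104705093-104705122: aaacaaagtatAACCTTGacctgaccaatc
Dicer1, AACCTTG, chr12:104702887-104702916: cttacaataaaAACCTTGccaatggcagtt
Among 447 mRNAs with a coding sequence of similar length, 10.3% held GATAATT and 26.8% held AACCTTG in it. The stretch of Dicer1 with the most bases paired to the guide, 15 of 19 without gaps, lay in the 3′ UTR, and capitals mark its paired bases.
Dicer1, 15 of 19, chr12:104689395-104689413, minus strand: TaAAaGTaCCTGATAAcTA
Of 15180 transcripts searched, 62 (0.408%) paired as well or better, Upf1 and Dicer1 included. Of the 61 other than Upf1, Dicer1 among them, 17 were called higher and 24 lower, where 22% and 22.9% of all tested genes were called. Their median log2 fold change was -0.01, with a range from -1.59 to 2.94. Of the 3657 that paired at 13 or more bases, 981 were higher and 842 lower. These counts of paired transcripts, unlike those of the 7-mers, were not matched for length. The Dicer1 transcript has 9851 nt, and a longer transcript offers more places to pair. A match is a description of letters and does not show a site in use.

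The other members differed in how many such letters they held. Ago3, whose 3′ UTR of 12742 nt is the longest of the 10, held GATAATT 4 times and AACCTTG 3 times there. GATAATT occurred in 52.2% and AACCTTG in 56.5% of the 23 mRNAs whose 3′ UTRs were of similar length. Tnrc6b, with 11609 nt, held AACCTTG once, as did Tnrc6c within 2588 nt. The 3′ UTRs of Ago1, Ago2, Ago4, Drosha, Dgcr8 and Tnrc6a held neither 7-mer. In coding sequences, Tnrc6c held AACCTTG once more (chr11:117738319-117738348) and Tnrc6a held GATAATT once (chr7:123189995-123190024), and the members other than these and Dicer1 held neither there. The Tnrc6c place in the 3′ UTR is shown because this gene was higher in siUpf1.
Tnrc6c, AACCTTG, chr11:117760948-117760977, plus strand: gtctgaagatgAACCTTGgcctcggcccct
Across 12416 mRNAs, GATAATT was in the 3′ UTR of 7.83% and AACCTTG in that of 10.0%. The median log2 fold change of mRNAs with and without GATAATT was 0.00 and -0.02, and that with and without AACCTTG was -0.11 and -0.02. The mRNAs that held either 7-mer had longer 3′ UTRs (for GATAATT a median of 2706 nt against 937 nt). Within the 3275 mRNAs whose 3′ UTR had at least 2000 nt, the medians were 0.04 with and 0.10 without GATAATT, so that the direction turned, and 0.01 with and 0.11 without AACCTTG. All 12416 mRNAs were also split by their coding sequence, with no limit on length. There the medians were -0.0035 with and -0.0221 without GATAATT, and -0.0845 with and -0.0157 without AACCTTG. A further 7-mer, GCAGTAC, was searched because an earlier account of these data had singled it out. It was in the 3′ UTR of 5.24% of mRNAs, with medians of 0.24 with it and -0.03 without it. The mRNAs with it also had longer 3′ UTRs (a median of 2526 nt against 973 nt). Within 3′ UTRs of at least 2000 nt the medians were closer, 0.21 with it and 0.08 without it. Among the members' 3′ UTRs GCAGTAC occurred once, in Ago4. In their coding sequences it occurred 2 times in Tnrc6a and once in Tnrc6c.

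Of the 10 genes, 2 were called higher in siUpf1 (Ago2 and Tnrc6c) and 4 lower (Dicer1, Ago1, Drosha and Tnrc6a) by DESeq2's Wald test at an adjusted p-value under 0.05. Among all 15191 genes tested, 44.9% were called, 22% higher and 22.9% lower, and the count of members is read against that background. Without siCtl replicate 1, or without siCtl replicate 3, only 2 members were called lower. The groups did not overlap in 8 of the 10, against 69.4% of all genes tested. The median log2 fold change of the 10 was -0.14, and that of all genes was -0.00. Members of 1 family moved apart: among the Argonautes 1 was higher and 1 lower, and so it was among the GW182 genes. The sizes differed more than the counts. The absolute log2 fold change of Dicer1 was above that of 95.6% of tested genes, that of Tnrc6c above 80.3% and that of Ago2 above 74.2%, while that of Tnrc6a was above only 24.0%. In bulk RNA, fewer cells that express a gene and less RNA per cell cannot be told apart.

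**Figure D1:**
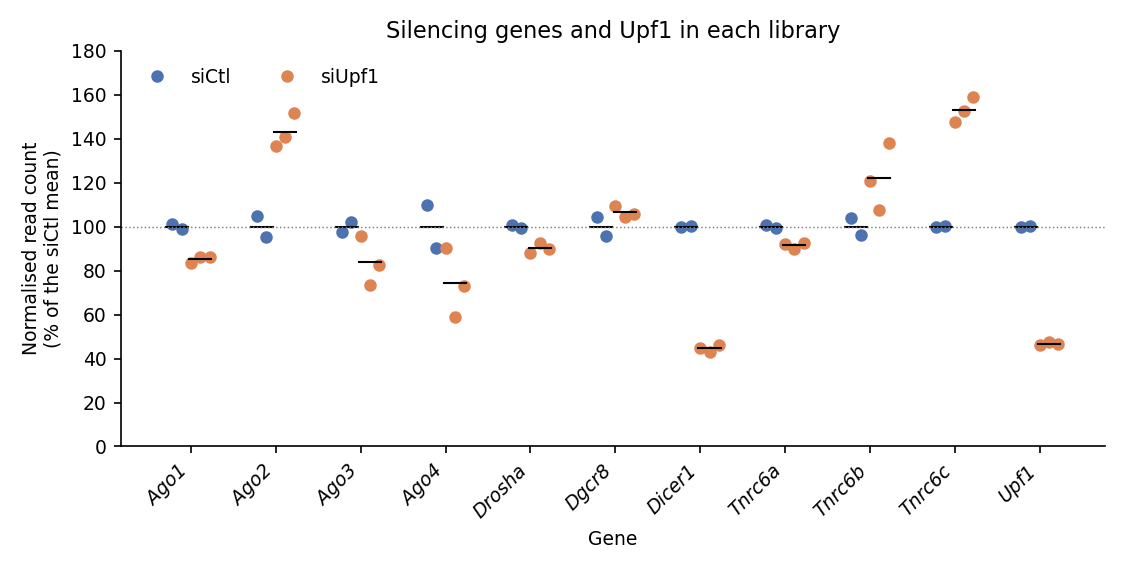
Normalised read counts of the 10 silencing genes and of Upf1 in each library, as a percent of the gene's siCtl mean (y axis from 0). Points are libraries (2 siCtl, 3 siUpf1) and short lines are group means. Dicer1 and Upf1 lie between 40 and 50 in all siUpf1 libraries, and Ago2 and Tnrc6c lie above 130 in all of them.

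Dicer1 had the largest change of the 10. It encodes the RNase that turns microRNA precursors into duplexes. It had 6003 and 6027 normalised counts in siCtl replicates 1 and 3, and 2701, 2598 and 2784 in siUpf1 replicates 1, 2 and 3. All siUpf1 libraries were far below both siCtl libraries, and the libraries of a group lay close together. The siUpf1 mean was 44.8% of the siCtl mean (log2 fold change -1.16, SE 0.0509, DESeq2 adjusted p = 8.51e-112, 95% interval 41.8% to 48.0%). Only 1.78% of tested genes had a lower log2 fold change. Upf1 itself, the siRNA's target, stood at 46.8% of its siCtl mean (log2 fold change -1.10, SE 0.0507, DESeq2 adjusted p = 7.09e-101), and the intervals of both genes overlapped. The log2 fold change of Dicer1 stayed between -1.29 and -1.13 in the 14 alternatives tried. Dicer1 (chr12:104687742-104751952) has 6 transcripts in the annotation, none of them marked as an NMD target, and no gene on its strand shares its exons.

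The genes of the Microprocessor changed little. Drosha (chr15:12824815-12935291) had 4722 and 4647 normalised counts in siCtl and 4128, 4331 and 4213 in siUpf1. The groups did not overlap, and the log2 fold change was -0.15 (SE 0.0485, DESeq2 adjusted p = 0.00578). With only the other siCtl library kept, the call was lost (adjusted p = 0.11 without replicate 1 and 0.0601 without replicate 3). Dgcr8 (chr16:18253948-18289246) had 1359 and 1249 normalised counts in siCtl and 1427, 1358 and 1381 in siUpf1, where the lowest siUpf1 library lay just under the highest siCtl library. Its log2 fold change of 0.09 (SE 0.0736) was not called by DESeq2 (adjusted p = 0.326). The 95% interval, -0.05 to 0.24, reaches from 96.5% to 118% of the siCtl level.

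The Dgcr8 mRNA is itself known to contain hairpins that the Microprocessor can cut. In GRCm38 these are annotated as microRNA genes inside its exons, on the minus strand of chromosome 16. Their mature sequences, from RefSeq (GRCm38.p6), are shown with the seed in capitals, since a read over them touches more than 1 annotated gene. MiR-3618 lies in an exon of the 5′ UTR and miR-1306 in a coding exon.
mmu-miR-3618-5p, chr16:18284602-18284623: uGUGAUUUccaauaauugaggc
mmu-miR-3618-3p, chr16:18284562-18284583: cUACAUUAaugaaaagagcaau
mmu-miR-1306-5p, chr16:18284288-18284310: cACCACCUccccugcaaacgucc
mmu-miR-1306-3p, chr16:18284248-18284268: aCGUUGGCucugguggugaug
The 4 seeds differ from each other. Other genes on the same strand share 494 nt of the Dgcr8 exons, and reads there cannot be assigned with certainty. Such overlaps were shorter for Drosha (72 nt), Tnrc6b (82 nt) and Tnrc6a (143 nt), and the other 6 members had none. Of the reads per kb of Drosha and Dgcr8 together, Drosha took 81.8% and 82.8% in siCtl and 79.0%, 80.5% and 79.8% in siUpf1. The groups did not overlap, and the difference of -2.57 percentage points had p = 0.1 in a two-sided exact permutation test, which is the smallest p that 2 libraries against 3 can give.

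Ago2 was the Argonaute that rose. It had 7657 and 6955 normalised counts in siCtl and 9979, 10279 and 11075 in siUpf1. Every siUpf1 library was above both siCtl libraries, and the siUpf1 mean was 143% of the siCtl mean (log2 fold change 0.52, SE 0.0545, DESeq2 adjusted p = 6.04e-20). It was called in every alternative with a test of its own. Its log2 fold change was smallest (0.33) after trends with GC content and transcript length had been taken out of each library. Ago2 (chr15:73095844-73184935) lies apart from the other Argonaute genes, and its exons overlap no gene on the same strand.

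The 3 other Argonaute genes are neighbours on the minus strand of chromosome 4, in the order Ago3 (126331704 to 126429556), Ago1 (126435012 to 126468583) and Ago4 (126489541 to 126533472). Ago1 had 2537 and 2477 normalised counts in siCtl and 2097, 2165 and 2163 in siUpf1, with no overlap. It fell by 0.23 on the log2 scale (SE 0.0583, DESeq2 adjusted p = 0.000354). Ago3 had 653 and 684 normalised counts in siCtl and 640, 492 and 553 in siUpf1, and siUpf1 replicate 1 lay close to the siCtl libraries. Its log2 fold change of -0.25 (SE 0.114) was not called by DESeq2 (adjusted p = 0.066), whereas edgeR called it (log2 fold change -0.24, adjusted p = 0.031), as did DESeq2 without siUpf1 replicate 1 (-0.35, adjusted p = 0.0144). It was also called once trends with GC content and length were taken out (-0.46, adjusted p = 1.46e-05).

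Ago4 was close to the limit of what this depth can show. Its 5 libraries held 31 to 69 reads, which gave 72.3 and 59.4 normalised counts in siCtl and 59.6, 38.9 and 48.1 in siUpf1. The groups overlapped at the edge. The log2 fold change was -0.42 (SE 0.321, DESeq2 adjusted p = 0.306). Its 95% interval ran from -1.05 to 0.21, which is from 48.4% to 116% of the siCtl level.

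**Figure D2:**
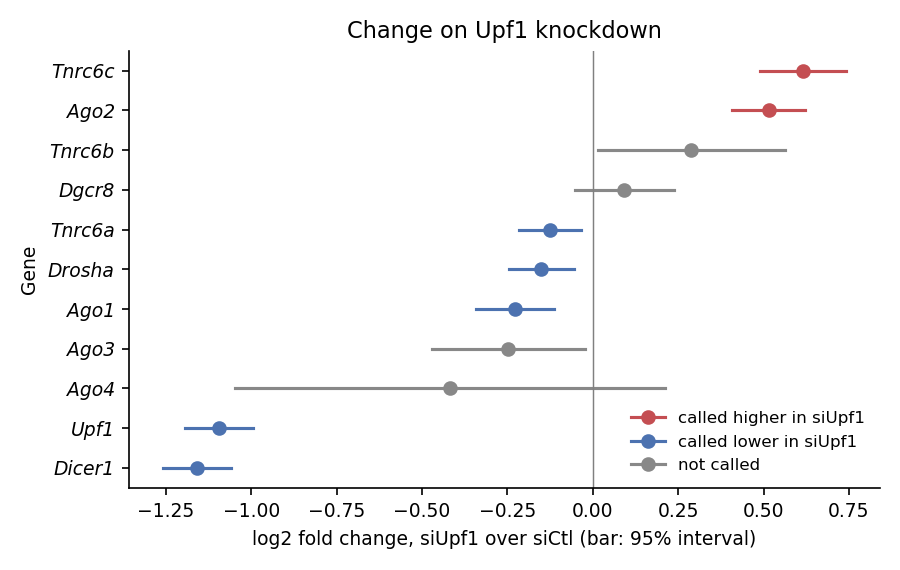
Log2 fold change of siUpf1 over siCtl (x axis) for the 10 silencing genes and Upf1 (y axis), with 95% intervals from DESeq2 and colours for the call. Dicer1 sits with Upf1 near -1.1, Ago2 and Tnrc6c sit above 0.4, and the intervals of Dgcr8 and Ago4 cross 0.

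To compare levels between genes, normalised counts were divided by the summed length of each gene's annotated exons. On this per-kb scale Ago2 made up most of the Argonaute RNA. It took 60.1% and 58.3% in siCtl and 70.0%, 70.8% and 72.02% in siUpf1, a difference of 11.7 percentage points. The share of Ago1 was 34.4% and 35.9% in siCtl and 25.4%, 25.8% and 24.3% in siUpf1, a difference of -9.97 points. Both genes' groups stood clear of each other, and both differences had p = 0.1 in the exact permutation test (two-sided), its smallest possible value. The share of Ago3 was 4.60% ± 0.363 (SD) in the 2 siCtl libraries and 3.24% ± 0.495 (SD) in the 3 siUpf1 libraries (exact permutation p = 0.2). Ago4 held 1.08% in siCtl and 0.672% in siUpf1 (exact permutation p = 0.2). The summed per-kb level of the 4 Argonautes was 908 and 851 in siCtl and 1017, 1035 and 1096 in siUpf1, so that the total was higher in all siUpf1 libraries.

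**Figure D3:**
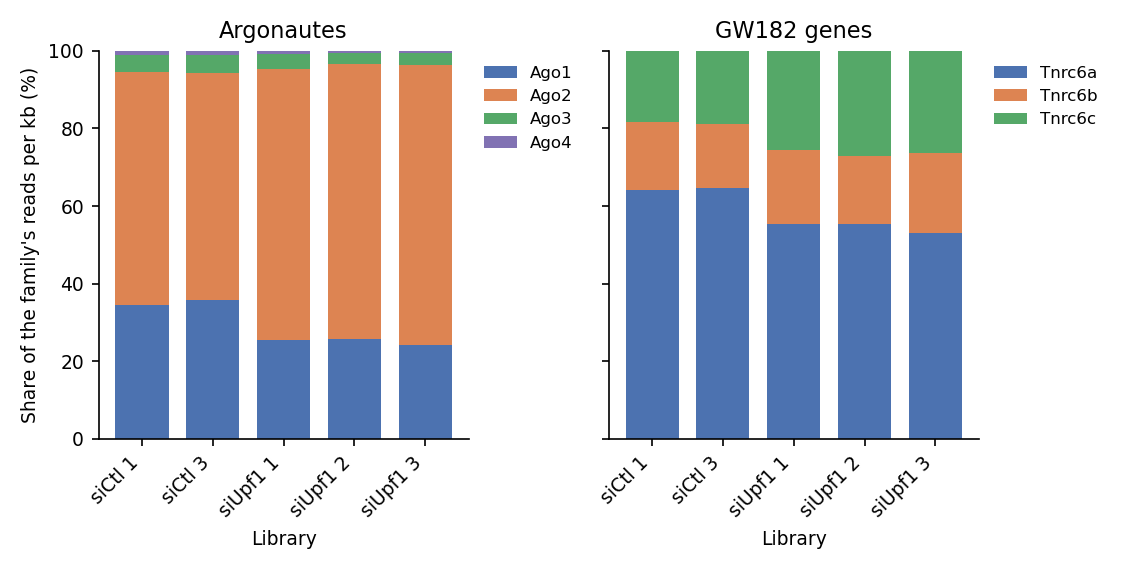
Share of each gene in the reads per kb of its family (y axis, percent) in each library (x axis), for the 4 Argonautes (left) and the 3 GW182 genes (right). The Ago2 band is wider in siUpf1 (mean 70.9%) than in siCtl (59.2%), and the Tnrc6c band is wider too (26.4% and 18.7%).

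The GW182 genes, whose products link Argonaute to the deadenylases, also moved apart. Tnrc6c (chr11:117654289-117763439) had 1520 and 1522 normalised counts in siCtl and 2246, 2323 and 2418 in siUpf1. The groups were far from overlapping, and the siUpf1 mean was 153% of the siCtl mean (log2 fold change 0.61, SE 0.064, DESeq2 adjusted p = 1.57e-20). Its range over the 14 alternatives was 0.49 to 0.64, and it was called in each that had a test of its own. Its 3′ UTR holds the AACCTTG place printed above, and its coding sequence holds another. Of mRNAs with a 3′ UTR of similar length, 17.6% held AACCTTG there. Of those with a coding sequence of similar length, 26.7% held it in that sequence. Any effect of the siRNA on this mRNA through these places was not tested.

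Tnrc6b (chr15:80711313-80941085) had 2636 and 2433 normalised counts in siCtl and 3058, 2727 and 3499 in siUpf1. The groups did not overlap, but the siUpf1 libraries differed widely among themselves. The log2 fold change of 0.29 (SE 0.14) was not called by DESeq2 (adjusted p = 0.0806), and it was called by edgeR (0.30, adjusted p = 0.00414). DESeq2 called it without siUpf1 replicate 2 (0.37, adjusted p = 5.55e-06) and, with a smaller value, without siUpf1 replicate 3 (0.19, adjusted p = 0.0361). With these trends in GC content and length taken out, the value was 0.08 (adjusted p = 0.328).

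Tnrc6a (chr7:123123885-123195296), the most abundant GW182 gene per kb, had 5236 and 5166 normalised counts in siCtl and 4792, 4681 and 4819 in siUpf1. It did not overlap and fell by 0.13 on the log2 scale (SE 0.0462, DESeq2 adjusted p = 0.0164). This small difference lost its call with total-count scaling (-0.10, adjusted p = 0.11), without either siCtl library (adjusted p = 0.169 and 0.107) and without siUpf1 replicate 2 (adjusted p = 0.0666). On the per-kb scale Tnrc6a took 64.5% ± 0.389 (SD, n = 2) of GW182 RNA under control siRNA and 54.6% ± 1.38 (SD, n = 3) after knockdown. Tnrc6c went from 18.7% ± 0.305 to 26.4% ± 0.778, with p = 0.1 for each in the exact permutation test, and Tnrc6b from 16.9% ± 0.694 to 18.98% ± 1.66 (p = 0.3).

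The order of the 10 genes by level per kb differed between the groups. In siCtl it ran from Drosha (789) through Ago2 (521), Tnrc6a (409), Dicer1 (359), Ago1 (309), Dgcr8 (169), Tnrc6c (118), Tnrc6b (107) and Ago3 (40.3) to Ago4 (9.48), and no neighbours overlapped. In siUpf1 Ago2 (744) and Drosha (712) overlapped at the top, and Tnrc6c (181) and Dgcr8 (180) overlapped further down. Dicer1 (161) was then below both of these. Read against the length of the representative transcript alone, the siCtl order began with Drosha (1037), Tnrc6a (636), Dicer1 (611) and Ago2 (529). The siUpf1 order also changed. It began with Drosha (935), Ago2 (757), Tnrc6a (582), Dgcr8 (321) and Ago1 (296), followed by Dicer1 (274) and Tnrc6c (263). The rank of these genes thus depends on the exon length assumed.

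Other genes of the pathway were taken from lists, and Piwil4, Tarbp2 and the host genes outside the naming rule were picked after their values had been seen. Among all genes tested, 22% were called higher and 22.9% lower, and the counts of every list below are read against these shares. Of 24 cofactors of microRNA processing, 14 were called lower and 2 higher, with a median log2 fold change of -0.15. The lowest were Tut4 (-0.83), which adds uridines to precursors held by Lin28 proteins, and the poly(A) polymerase Tent2 (-0.75). Ncbp1 (0.38), a subunit of the nuclear cap-binding complex, and the Dicer partner Prkra (0.32) were higher. Prkra lost its call without siCtl replicate 1 (adjusted p = 0.053) or replicate 3 (0.109), which left 1 cofactor called higher. Tarbp2, the other double-stranded RNA-binding partner of Dicer, was called lower, with 1258 and 1426 normalised counts in siCtl and 963, 1083 and 942 in siUpf1 (log2 fold change -0.43, DESeq2 adjusted p = 3.31e-06).

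Of 26 genes for Argonaute loading and partners, 14 were lower and 4 higher (median -0.20). Mov10 (-0.78), an RNA helicase found with Argonautes, and Ipo8 (-0.64), an importin that binds them, were the lowest of the called genes whose mean reached 100 normalised counts, and Ajuba, with 15.1 to 42.5 normalised counts, had -0.86 and was not called (DESeq2 adjusted p = 0.134). Zswim8 (0.68), the receptor of the ubiquitin ligase for Argonautes engaged in target-directed microRNA decay, was the highest, followed by P4ha1 (0.31), a prolyl hydroxylase subunit. Zswim8 went from 3888 and 3927 normalised counts in siCtl to 6001, 6378 and 6360 in siUpf1.

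Of 26 deadenylation and decapping effectors, which act downstream of GW182 proteins, 13 were lower and 8 higher (median -0.14). Subunits of the CCR4-NOT deadenylase stood at both ends. Cnot7 (0.92), a catalytic subunit, and the cap-binding repressor Eif4e2 (0.75) were the highest, and Cnot9 (-0.83), a subunit that contacts GW182 proteins, and the decapping cofactor Patl1 (-0.44) were the lowest. Cnot7 had 2251 and 2131 normalised counts in siCtl and 4401, 3937 and 4110 in siUpf1, whereas Cnot9 had 3167 and 3107 against 1726, 1863 and 1710.

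The piRNA pathway is a germline branch of small RNA silencing. Of its 12 genes 6 had enough reads to be tested. Asz1 (2798 to 3396 normalised counts) and Tdrkh (2136 to 2400), which encode mitochondrial-surface proteins of the pathway, held most of its reads, and the Piwi gene Piwil1 stayed under 6 in every library. Of the 6, 2 were lower and 0 higher, with a median of -0.15. By edgeR 1 of them was higher. Asz1 fell by 0.18 on the log2 scale (DESeq2 adjusted p = 0.0114), a call that 5 of 13 alternatives did not keep, among them those without siCtl replicate 3 (adjusted p = 0.225, and 0 genes of the pathway lower) and without siUpf1 replicates 2 or 3 (0.0571 and 0.102, and 1 gene lower each). Piwil4, with 49.3 and 62.3 normalised counts in siCtl and 19.6, 15.1 and 23.2 in siUpf1, was called lower (-1.52 on the log2 scale, SE 0.411, DESeq2 adjusted p = 0.000748).

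Non-coding genes that carry microRNAs were mostly at low counts, and 10 of 15 could be tested. Of these 6 were higher and 1 lower, with a median log2 fold change of 0.44. Meg3 had 71.3 and 85.9 normalised counts in siCtl and 203, 172 and 230 in siUpf1 (log2 fold change 1.36, SE 0.215, DESeq2 adjusted p = 1.82e-09). Rian (0.47), from the same imprinted locus, was called with adjusted p = 0.0367, and Mir17hg (-0.27), the host of the miR-17 cluster, was the 1 gene called lower (adjusted p = 0.0353). Both calls were lost in 7 of 13 alternatives, Rian without siUpf1 replicate 1 (adjusted p = 0.115), Mir17hg without siUpf1 replicate 3 (0.173), and both without siCtl replicate 1, siCtl replicate 3 or siUpf1 replicate 2 (0.0976 to 0.308). Only 1 host gene was higher without siCtl replicate 1 and 3 without siUpf1 replicate 1. These are levels of polyadenylated host transcripts and not of mature microRNAs.

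**Figure D4:**
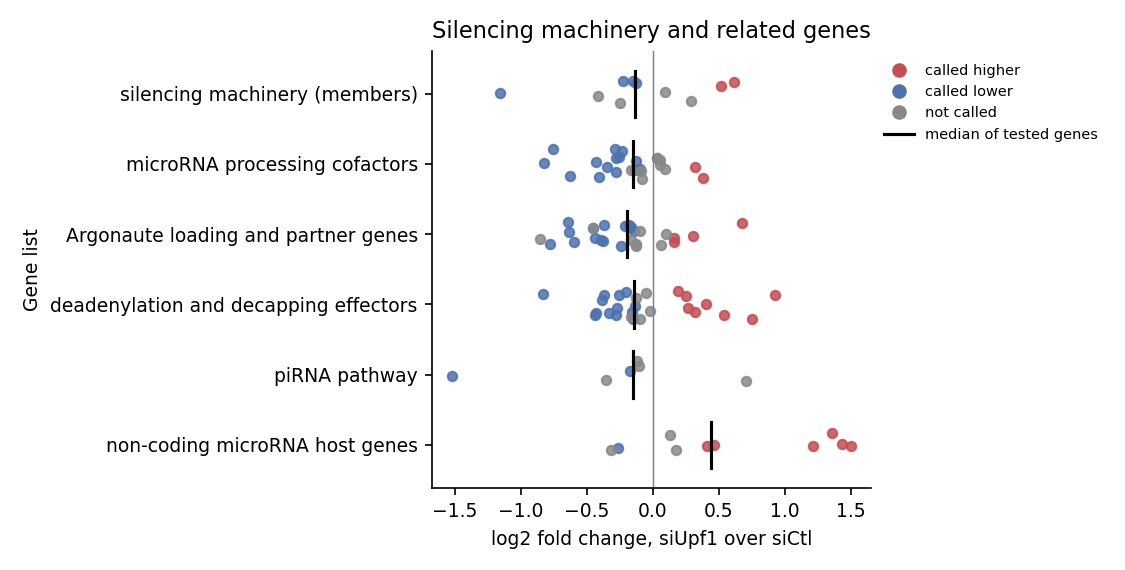
Log2 fold change of siUpf1 over siCtl (x axis) for tested genes of each list (y axis), with points coloured by call and a bar at the list's median. Medians lie between -0.20 and -0.14 in the first 5 lists and at 0.44 for the microRNA host genes.

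The libraries held 20402205 to 27717594 assigned reads. Of 12 markers of neuronal and neuroblastoma cells all were tested, and 9 were higher and 1 lower, beside 22% and 22.9% of all genes tested. The summed level of these markers was 46276 to 46313 normalised counts in siCtl and 55621 to 57748 in siUpf1. Of 13 markers of glia, blood, fibroblasts and endothelium, 9 had enough reads to be tested, with 0 higher and 1 lower (Pecam1). Their summed level was 1185 to 1212 in siCtl and 1123 to 1160 in siUpf1. The defining markers Olig2, Ptprc and Aif1 stayed under 5 normalised counts in every library. The part of these marker shifts in the members' differences was not tested.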

How the data were processed

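Polyadenylated RNA from N2A cells was measured in 5 libraries, grouped by their labels into siCtl (n = 2) and siUpf1 (n = 3). The deposited table gave raw counts of reads for each gene. Per the study's methods, the authors trimmed reads with fastp, mapped them to GRCm38.p6 with STAR 2.7.0f and counted reverse-strand reads in exons with featureCounts (Subread 1.6.4) under a GENCODE M22 or M25 annotation. Counts were neither normalised nor pooled, PCR duplicates cannot be recognised in them, and counting error is a lower limit.

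Counts were tested with DESeq2 1.42.0 (R 4.3.3), the tool of the study's methods, by a Wald test of group over all genes, with median-of-ratios size factors, Benjamini-Hochberg adjustment after independent filtering, and a call under 0.05. Normalised counts are counts divided by the size factor. The edgeR quasi-likelihood test (4.0.16) was the first alternative. Others were TMM or total-count size factors, a minimum of 10 counts in 2 libraries, no filtering, mitochondrial genes and Gm42418 left out, shrunken fold changes, a replicate block, each library left out, and removal of trends with transcript length and GC content. On simulated data (28121 genes, 200 of them changed) DESeq2 called 96% of genes lowered by 1 log2 unit and 100% of those raised by it, 68% of those lowered by 0.5 and 78% of those raised by 0.5.

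Gene models, exon lengths and 3′ UTRs came from GENCODE M21 (GRCm38), where 99.7% of identifiers were found, and microRNAs from RefSeq. Shares of a family used counts per kb of exon, with exact permutation tests of the differences. No protein sequences were used here. All members and Upf1 were named, and of each related list the 2 called genes with the highest and the 2 with the lowest log2 fold change among those whose mean reached 100 normalised counts. The members, the lists and their alternatives were chosen with earlier results of these data known. Of 138 listed genes 137 were found in the table by symbol.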

Additional observations from a re-analysis of the deposited data

How the results depend on the processing

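No fold change, share difference or median compared here changed sign in any alternative. Dicer1, Ago2 and Tnrc6c kept their call in every alternative with a test of its own, and Dgcr8 and Ago4 were called in none. The shrunken fold changes had no test of their own and carried the adjusted p-values of the main fit. By edgeR, Ago3 (-0.24, adjusted p = 0.031) and Tnrc6b (0.30, 0.00414) were called and 1 piRNA gene was higher. With total-count size factors Tnrc6a was -0.10, the median of the loading genes -0.16, and 1 piRNA gene and 0 microRNA host genes were lower, and without independent filtering 0 host genes were lower. With the length and GC trend removed, the medians were -0.21 (members), -0.23 (loading genes), -0.18 (processing cofactors) and 0.26 (host genes), and Ago3 stood at -0.46. The causes were not tested. Without length normalisation the shares differed by -7.54 points for Ago1, 9.88 for Ago2, -2.09 for Ago3 and 6.45 for Tnrc6c.

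Replicate numbers 1 and 3 occur in both groups, and the labels do not say whether they pair the libraries. The correlations of their deviations from the group means were -0.0861 and -0.0748 over 11898 genes, so no shared shift was seen. With 2 siCtl libraries these deviations mirror each other, so both values rest on the same siCtl difference and cannot settle the pairing. With the replicate block, 1957 genes were higher and 1962 lower. Of the members 1 was lower, with Ago1 at -0.23 (adjusted p = 0.0844), Drosha at -0.17 (0.166), Tnrc6a at -0.11 (0.371) and Tnrc6b, now called, at 0.37 (0.00533). The calls were 2 higher loading genes, 8 lower decapping effectors, 1 higher and 8 lower processing cofactors, 1 higher and 0 lower host genes (median 0.34) and 0 lower piRNA genes. The block leaves few residual degrees of freedom, and a call lost under it is no sign of a weaker effect. Because replicate number 2 occurs only in siUpf1, that library adds nothing to the group difference under the block. The fold changes were therefore near those without siUpf1 replicate 2 (for Tnrc6b 0.369 and 0.371).

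When each library was left out in turn, 2 to 5 members were lower, with Drosha between -0.17 and -0.13, Tnrc6a between -0.14 and -0.11, Ago3 between -0.35 and -0.16 and Tnrc6b between 0.19 and 0.37. Only 2 members were lower without siCtl replicate 1 or without replicate 3. Without 1 of them the lone siCtl library is assumed to vary like the others. Loading genes had medians from -0.23 to -0.17. Higher processing cofactors numbered 1 to 2, higher host genes 1 to 5 (1 without siCtl replicate 1, 3 without siUpf1 replicate 1) and lower ones 0 to 1. Lower piRNA genes numbered 0 to 2, with medians from -0.20 to -0.078. Depth limits Ago4 and the host genes.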

Other observations

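Genes around let-7, a microRNA family of differentiating cells, were read out of the lists after their values had been seen. The proteins Lin28a and Lin28b hold let-7 precursors back, and Tut4 and Tut7 tag the held precursors with uridines. Lin28a had 3647 and 3711 normalised counts in siCtl and 2352, 2503 and 2306 in siUpf1 (log2 fold change -0.63, DESeq2 adjusted p = 8.99e-27). Lin28b (-0.35), Tut4 (-0.83), Tut7 (-0.28) and the let-7 target Trim71 (-0.39) were also called lower, as were 22.9% of all tested genes. The groups did not overlap in any of the 5, Lin28a included, and they did not in 69.4% of all tested genes. In the list of processing cofactors, Dis3l2 (-0.16, DESeq2 adjusted p = 0.164), which degrades uridylated precursors, was not called. Nor was Khsrp (0.03, adjusted p = 0.583), which promotes processing. No full list of let-7 genes was made. Mir99ahg, which carries let-7c in its annotated extent, had 13.6 and 16.04 normalised counts in siCtl and 44.5, 35.1 and 46.4 in siUpf1 (log2 fold change 1.51, SE 0.453, DESeq2 adjusted p = 0.00273). Without siCtl replicate 1, and under the replicate block, Meg3 was the 1 host gene called higher, so Mir99ahg lost its call in both. Its let-7c is shown with the seed in capitals (RefSeq, GRCm38.p6, plus strand).
mmu-let-7c-5p, chr16:77599672-77599693: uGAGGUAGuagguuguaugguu
The complement of this seed, CTACCTC, occurred 3 times in the 3′ UTR of Ago2 and once in that of Ago3, and in 9.70% of mRNAs. That share was not matched for length, and these 3′ UTRs are long (11064 nt in Ago2 and 12742 nt in Ago3). Whether they held CTACCTC more often than 3′ UTRs of similar length was not tested. Mature let-7 was not measured.

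The gene for the fragile X protein FMRP, an RNA-binding protein found with Argonautes and at the centre of the study, was in the list of Argonaute partners. Fmr1 had 1254 and 1321 normalised counts in siCtl and 925, 783 and 774 in siUpf1 (log2 fold change -0.64, SE 0.0914, DESeq2 adjusted p = 3.13e-11). Its relatives Fxr1 (-0.60) and Fxr2 (-0.24) were called lower as well. The chaperone genes Hspa8 (-0.46) and Hsp90ab1 (-0.44), whose products help to load duplexes into Argonautes, were also lower, as were Ptges3 (-0.38), Stip1 (-0.21) and Hsp90aa1 (-0.18), while the Hsp90 co-chaperone gene Fkbp4 was called higher (0.16, adjusted p = 0.00148). These genes were picked after their values had been seen.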
